A study of Mus musculus with 59 samples.

Results

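The prefrontal cortex of wild-type (WT) male mice that had received the antidepressant fluoxetine was compared with that of WT males that had received vehicle. The comparison took 10 of the 59 RNA-seq libraries of the series, 5 from fluoxetine-treated and 5 from vehicle-treated mice, each assigned by its library name and title. All 10 mice were C57BL/6J and were wild type for Ash1l, a histone methyltransferase gene whose heterozygous loss (HT) is the genotype studied in the rest of the series. Tissue was taken on postnatal day 25, after treatment from day 3 to day 24, and drug or vehicle reached the pups through the mother's milk. Females, HT males and lithium-treated WT males enter below only where they are named. The p-values rest on the spread between libraries within groups, pooled over all 59 libraries of the series. The labels name no dam, litter, cage or dose, so effects of a dam or litter cannot be told apart from those of the drug.

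Fluoxetine blocks the serotonin transporter, which clears serotonin from the extracellular space. Serotonergic axons reach the prefrontal cortex from cell bodies in the raphe nuclei of the brainstem, and cortical neurons and glia carry most families of serotonin receptor. The weeks before weaning are a period in which cortical circuits, myelin and the cellular response to neuronal activity mature.

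The libraries held 24.47 to 34.19 M recovered reads with fluoxetine and 25.69 to 28.18 M with vehicle. Ash1l lay at 4928 to 5284 normalised read counts with fluoxetine and at 5014 to 6218 with vehicle, overlapping ranges, where a normalised read count is a gene's reads divided by the size factor of its library. The Y-linked gene Ddx3y was at 1113 counts or more and Xist at 6.2 counts or fewer in all 10 libraries, as the label male requires. Markers of excitatory cortical neurons were present throughout, with Slc17a7 at 44200 to 48700 counts in fluoxetine libraries and 35800 to 49500 in vehicle libraries.

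Several libraries stood apart. In vehicle replicate 2, 9.69% of normalised counts came from mitochondrially encoded genes, against 5.66% to 6.89% in the fluoxetine libraries and 5.57% to 6.25% in the other 4 vehicle libraries. The 18 striatal markers tested summed to 27587, 32931 and 25512 counts in fluoxetine replicates 1, 4 and 5, to 15581 and 15753 in fluoxetine replicates 2 and 3, and to 14769 to 17277 in vehicle libraries. Drd2, the dopamine receptor gene of striatal projection neurons, followed the same split, at 233.6, 251.6 and 183.7 counts in fluoxetine replicates 1, 4 and 5 and at 60.68 or fewer in every other library. The 9 olfactory bulb markers tested summed to 10109 to 15031 counts with fluoxetine, and to 22228 and 40104 in vehicle replicates 1 and 3 against 9548 to 13897 in the other vehicle libraries. Eomes, a transcription factor gene of bulb projection neurons, was at 22.12 counts or fewer in fluoxetine libraries, and at 756.2, 1659 and 197.5 in vehicle replicates 1, 3 and 4 against 1.24 and 1.03 in vehicle replicates 2 and 5. No striatal or bulb marker passed the test for fluoxetine; their medians on the log2 fold change scale were 0.80 and -1.09. The levels of both lists were uneven across the libraries and moved with the groups. The calls without those 6 libraries are given below, and the part of either region in the results was not tested otherwise.

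Fluoxetine was followed by small shifts in a limited set of genes. Of 17875 genes tested, 152 (0.85%) passed an adjusted p of 0.05 (limma, Benjamini-Hochberg over all genes), 74 of them (0.414%) higher and 78 (0.436%) lower with fluoxetine. The median size of change was 0.32 on the log2 scale for the higher genes and 0.44 for the lower genes, and 2 higher and 9 lower genes changed at least 2-fold. The 5 fluoxetine and 5 vehicle values did not overlap for 62 of the 74 higher and 70 of the 78 lower genes; over all genes tested, 351 (1.96%) lay wholly above and 354 (1.98%) wholly below the vehicle libraries. Of the called genes, 70 of the 74 higher and 68 of the 78 lower were protein-coding, as were 15175 of all 17875 genes tested.

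The number of genes past the threshold depended on single libraries. It was 32, 40, 85, 41 and 64 without fluoxetine replicates 1 to 5 in turn, and 218, 26, 54, 198 and 378 without vehicle replicates 1 to 5 in turn. Without vehicle replicate 2, 12 higher (0.0671%) and 14 lower genes (0.0783%) passed, 0.145% in all, 18 of them among the 152. With 5 libraries a group and no other library in the fit, no gene passed, although 2133 had an unadjusted p under 0.05 (2948, or 16.5%, in the fit to the whole series). The genes that passed with all libraries and in each of the 10 fits that left out 1 library were 10: Kmt2d, Kmt2a, Banp, Per2, Myh9, Zfp366 and Mirg, which were lower, and Id2, Lcmt2 and 1500011B03Rik, a RIKEN gene with no assigned role, which were higher.

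The 6 libraries high in striatal or olfactory bulb markers were fluoxetine replicates 1, 4 and 5 and vehicle replicates 1, 3 and 4. Vehicle replicate 4 was high in single bulb markers such as Eomes (197.5 counts). Its bulb list summed to 13897 counts, below fluoxetine replicate 4 (15031). Without these 6 libraries, 2 libraries were left in each group, of which vehicle replicate 2 was 1, and 5 genes passed, 2 of them among the 152. The medians of the striatal and bulb lists were then 0.02 and 0.50, which is no test, since the libraries were left out by these same markers. Kmt2a was at -0.44, Per2 at -0.48, Myh9 at -0.58, Lcmt2 at 0.76 and Id2 at 0.26 in that fit, with limma adjusted p-values of 0.0515 to 0.405. Neither this set of libraries nor the one without vehicle replicate 2 is free of both departures.

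**Figure D1:**
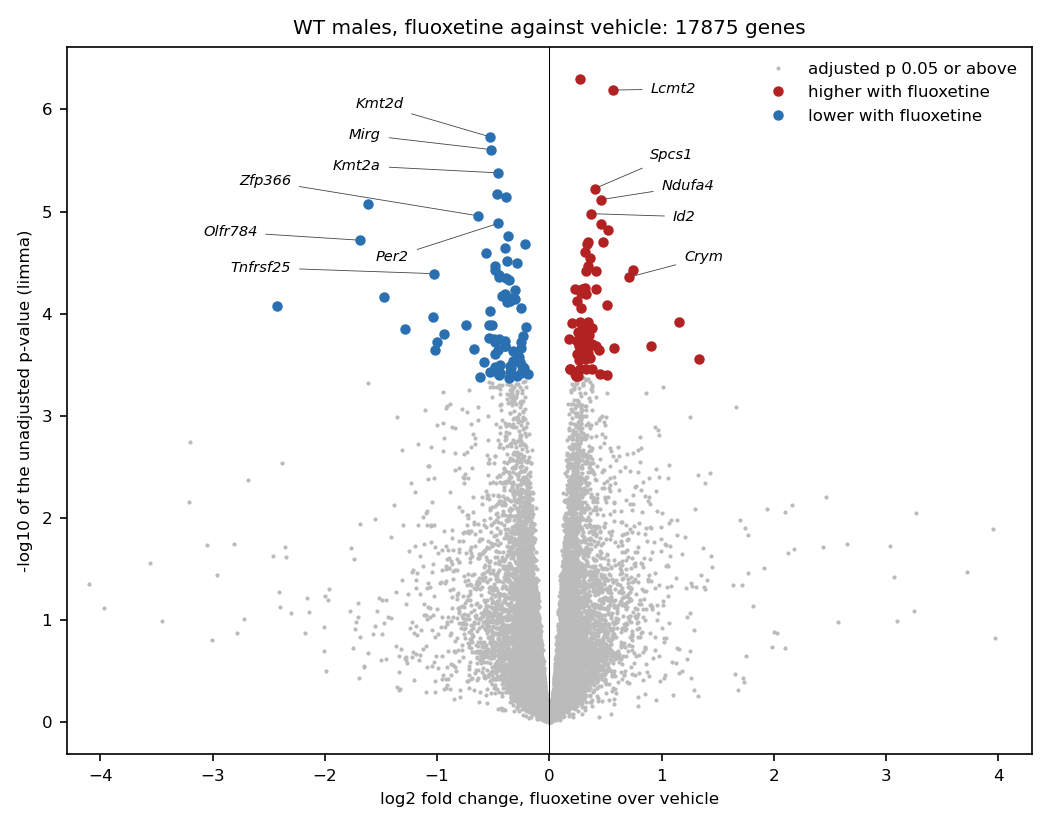
Log2 fold change of fluoxetine over vehicle (x axis) against the negative log10 of the unadjusted limma p-value (y axis) for all 17875 genes in WT males, with the 74 higher genes in red and the 78 lower genes in blue. The higher genes have log2 fold changes of 0.18 to 1.33, the lower genes sit 0.19 to 2.42 below 0, and most points lie close to 0 on both sides.

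Genes of histone methyltransferases were among the leading lower genes. Kmt2d and Kmt2a encode methyltransferases that place methyl groups on histone H3 lysine 4 at enhancers and promoters. Kmt2d (chromosome 15, 98831669 to 98871204, minus strand, GRCm38) was at 3083, 3294, 2993, 3476 and 3523 normalised counts in the fluoxetine libraries, against 4269, 4321, 5833, 5368 and 4075 in the vehicle libraries. The groups were separate, and the vehicle libraries were the more variable. Kmt2d averaged 3274 ± 234 counts with fluoxetine and 4773 ± 778 with vehicle (SD, n = 5 each) and fell by 0.53 ± 0.10 on the log2 scale (SE, limma, adjusted p = 0.0110). Without vehicle replicate 2 its change was -0.56 (adjusted p = 0.0114). Kmt2a (chromosome 9, 44803355 to 44881296, minus strand) was at 3908, 3908, 4065, 3920 and 3650 counts with fluoxetine and at 5164, 5834, 6055, 4755 and 5036 with vehicle. Again no fluoxetine library reached the lowest vehicle library, and the fluoxetine libraries lay within a narrow span. Kmt2a fell by 0.46 ± 0.090 (adjusted p = 0.0149), and by 0.43 without vehicle replicate 2 (adjusted p = 0.0399).

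Banp, whose protein binds unmethylated CGCG-containing promoter motifs and opens chromatin there, was also lower. Banp (chromosome 8, 121949750 to 122029258, plus strand) was at 593, 643, 583, 613 and 582 counts with fluoxetine and at 908, 728, 747, 759 and 814 with vehicle. Its change was -0.39 ± 0.078 (adjusted p = 0.0149), and -0.42 (adjusted p = 0.0199) without vehicle replicate 2. Of 35 chromatin regulators, 5 fell and none rose, where 0.436% of all genes tested fell and 0.414% rose. The 5 were Kmt2d, Kmt2a, Banp, the histone H3 lysine 36 demethylase gene Kdm2a (-0.23 ± 0.058, adjusted p = 0.0376) and the remodeller gene Chd8 (-0.22 ± 0.059, adjusted p = 0.0463), the last with values that overlapped between groups. The log2 fold change was below 0 for 31 of the 35, against 49.7% of all genes, with a median of -0.15 against 0.001 for all genes tested. The list was lower in sum in each fluoxetine library, at 74753 to 77500 counts, than in each vehicle library, at 79036 to 97137. The number of members that passed was 3 or 4 when any 1 fluoxetine library was left out, 3 without vehicle replicate 2 (Kmt2d, Kmt2a and Banp) or 3, 6 and 4 without vehicle replicates 1 and 4, and 9 without vehicle replicate 5. With the trends over GC content and transcript length removed 3 passed and the median was -0.05, and with both changes none passed. Members short of the threshold included the DNA methyltransferase gene Dnmt3a, at -0.29 (adjusted p = 0.0514), and the methylcytosine dioxygenase gene Tet3, at -0.37 (adjusted p = 0.0554). Ezh1, which encodes an H3 lysine 27 methyltransferase, was at 0.05 (adjusted p = 0.722), and Setd2, which encodes an H3 lysine 36 methyltransferase, at -0.04 (adjusted p = 0.828). In bulk tissue, fewer cells of a type and less RNA per cell cannot be told apart.

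Transcription cofactors were among the other leading lower genes. Taf3, a subunit of the general factor TFIID that reads methylated H3 lysine 4, was at 364 to 456 counts with fluoxetine and 469 to 612 with vehicle and fell by 0.36 ± 0.077 (adjusted p = 0.0177). Baz1b, a subunit of chromatin remodelling complexes, fell by 0.22 ± 0.047 (adjusted p = 0.0177), at 3151 to 3524 counts with fluoxetine and 3660 to 4306 with vehicle. Ncoa3, a coactivator of nuclear receptors, fell by 0.29 ± 0.064 (adjusted p = 0.0207). Zfp366, a zinc finger protein that represses nuclear receptors, was at 364, 321, 284, 305 and 236 counts with fluoxetine and at 499, 500, 392, 446 and 503 with vehicle, and fell by 0.64 ± 0.13 (adjusted p = 0.0164). Each of these 4 was separate between the groups. Only Zfp366 of them passed without vehicle replicate 2 (-0.61, adjusted p = 0.0490); the adjusted p of Taf3, Baz1b and Ncoa3 was then 0.0685, 0.0671 and 0.0671.

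Per2, a core repressor of the circadian clock that also responds to cyclic AMP and glucocorticoid signalling, was lower with fluoxetine. Per2 (chromosome 1, 91415982 to 91459324, minus strand) was at 1054, 1188, 975, 1119 and 1029 counts with fluoxetine and at 1590, 1473, 1425, 1353 and 1523 with vehicle. The groups were separate with a similar spread in each, 1073 ± 82.5 and 1473 ± 90.9 (SD, n = 5 each). Per2 fell by 0.46 ± 0.095 (adjusted p = 0.0170), and its change was -0.46 (adjusted p = 0.0410) without vehicle replicate 2. It was the 1 member of 19 clock genes past the threshold, where 0.436% of all genes tested fell. Of the 19, 17 had a log2 fold change below 0 (median -0.09), against 49.7% of all genes. With vehicle replicate 2 and the trends over GC content and transcript length removed, no clock gene passed and the median was -0.06. Nr1d1, which encodes the repressor REV-ERB alpha, was at -0.36 (adjusted p = 0.0878), and Per1 at -0.33 (adjusted p = 0.305). The activators Arntl and Clock were at -0.11 and -0.09, and Tef and Ciart, at 0.11 and 0.15, lay above 0. Sik2, a salt-inducible kinase that keeps the CREB coactivators of the CRTC family out of the nucleus, fell by 0.40 ± 0.086 (adjusted p = 0.0186), at 799, 825, 749, 728 and 726 counts with fluoxetine and 1026, 1062, 1042, 875 and 1042 with vehicle. Vehicle replicate 4 was the low one of its group and still lay above the fluoxetine libraries. The adjusted p of Sik2 was 0.0569 without vehicle replicate 2.

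The other leading lower genes have varied roles. Myh9, the heavy chain of nonmuscle myosin IIA, which is abundant in endothelium and other non-neuronal cells, was at 2317, 1986, 1946, 2364 and 2232 counts with fluoxetine and at 3039, 2752, 3092, 2883 and 3148 with vehicle (-0.46 ± 0.093, adjusted p = 0.0149). It was lower in 5 of 5 fluoxetine libraries than in any vehicle library, and its change was -0.49 (adjusted p = 0.0199) without vehicle replicate 2. Mirg, a long noncoding RNA that hosts microRNAs of the imprinted Dlk1-Dio3 region on chromosome 12, was at 463, 450, 475, 535 and 553 counts with fluoxetine and at 721, 826, 657, 714 and 643 with vehicle (-0.52 ± 0.099, adjusted p = 0.0110). The mature microRNAs of the cluster were not measured by these polyadenylated-RNA libraries. Sh3pxd2b, a scaffold protein of podosomes, fell by 0.48 ± 0.11 (adjusted p = 0.0207), Cobll1 by 0.56 ± 0.12 (adjusted p = 0.0190) and the transmembrane protein gene Tmem108 by 0.38 ± 0.083 (adjusted p = 0.0207). Of these 3, only Sh3pxd2b passed without vehicle replicate 2 (adjusted p = 0.0490). The olfactory receptor gene Olfr784 had the largest fold change of the leading genes, -1.69 ± 0.36 (adjusted p = 0.0177), but only 1.17 to 4.7 counts with fluoxetine and 7.42 to 14.3 with vehicle, and the log2 scale with 1 count added understates the change of so low a gene.

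**Figure D2:**
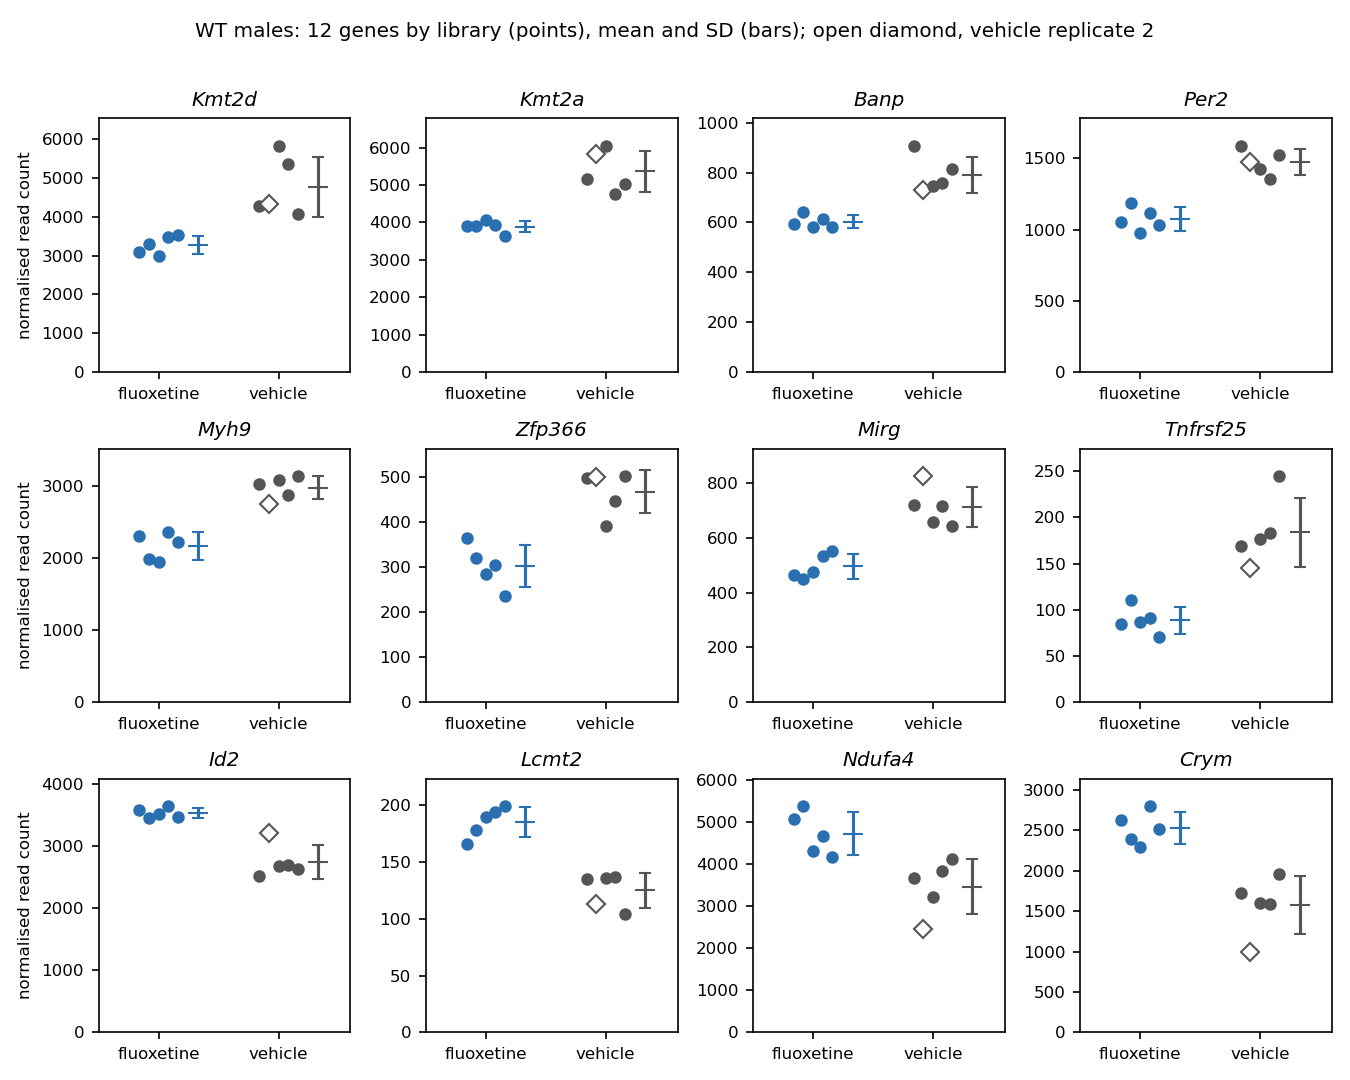
Normalised read counts (y axis, from 0) of 12 genes in the 5 fluoxetine (blue, left) and 5 vehicle (grey, right) libraries of WT males; points are libraries, bars the mean and SD, and the open diamond is vehicle replicate 2. No fluoxetine point overlaps a vehicle point in any of the 12 panels, and vehicle replicate 2 is the lowest vehicle library for Ndufa4 and Crym but the highest for Id2.

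On the higher side, Id2 and Lcmt2 were the leading genes that passed with every library left out. Id2 encodes an inhibitor of basic helix-loop-helix transcription factors that restrains differentiation. Id2 (chromosome 12, 25093799 to 25097140, minus strand) was at 3589, 3451, 3525, 3650 and 3467 counts with fluoxetine and at 2514, 3215, 2687, 2699 and 2630 with vehicle. The fluoxetine libraries were nearly alike, and vehicle replicate 2 stood above the other vehicle libraries, closest to the fluoxetine ones. Id2 rose by 0.37 ± 0.076 on the log2 scale (adjusted p = 0.0164), and by 0.43 ± 0.077 (adjusted p = 0.0114) without vehicle replicate 2. Lcmt2, which encodes a methyltransferase that modifies a phenylalanine transfer RNA, was at 166, 178, 189, 194 and 199 counts with fluoxetine and at 135, 113, 136, 137 and 104 with vehicle. Lcmt2 (chromosome 2, 121128307 to 121140653, minus strand) rose by 0.57 ± 0.10 (adjusted p = 0.00577), and by 0.54 (adjusted p = 0.0199) without vehicle replicate 2. Tmsb4x, which encodes the actin-binding peptide thymosin beta 4, rose by 0.41 ± 0.094 (adjusted p = 0.0238), at 11382 to 14127 counts with fluoxetine and 8305 to 10579 with vehicle, and passed without vehicle replicate 2 (adjusted p = 0.0421).

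Genes of the nuclear-encoded respiratory chain were among the higher ones. Of the nuclear-encoded respiratory chain, 8 of 64 genes rose and none fell, where 0.414% of all genes tested rose and 0.436% fell. All 64 had a log2 fold change above 0 (median 0.21). Over all genes tested the median was 0.001, and 49.7% lay below 0. Ndufa4, a subunit associated with cytochrome c oxidase, was at 5074, 5386, 4307, 4667 and 4167 counts with fluoxetine and at 3679, 2471, 3229, 3834 and 4127 with vehicle. The groups did not overlap but nearly met at their edges, and vehicle replicate 2 was the lowest library. Ndufa4 rose by 0.46 ± 0.093 (adjusted p = 0.0149). Ndufa11 of complex I (0.35 ± 0.084, adjusted p = 0.0344), Cox7c of complex IV (0.33 ± 0.082, adjusted p = 0.0377) and Sdhd of complex II (0.27 ± 0.067, adjusted p = 0.0379) were also higher. The 64 genes summed to 210764 to 233131 counts with fluoxetine, and to 198970 to 209434 with vehicle apart from vehicle replicate 2, at 177184. Without that library none of the 64 passed, the median was 0.14 and the adjusted p of Ndufa4 was 0.0671. With the trends over GC content and transcript length removed 3 passed and the median was 0.15, and with both changes none passed. Of the 64, 1, 1, 6, 1 and 4 passed without fluoxetine replicates 1 to 5 in turn, and 11, 3, 10 and 12 without vehicle replicates 1, 3, 4 and 5.

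Leading higher genes outside that list included others of the same machinery. Ndufs4, a complex I subunit, was at 1621, 1511, 1480, 1378 and 1442 counts with fluoxetine and at 1344, 1122, 1013, 1188 and 1187 with vehicle (0.35 ± 0.074, adjusted p = 0.0177). Ndufaf5 (0.32 ± 0.068, adjusted p = 0.0190) assembles complex I, and Smim20 (0.37 ± 0.080, adjusted p = 0.0206) takes part in the assembly of complex IV. Snrpe (0.46) is a core protein of spliceosomal particles, Exosc4 (0.42) a subunit of the RNA exosome, Med27 (0.34) a Mediator subunit and Hexim2 (0.47) an inhibitor of the elongation kinase P-TEFb. Spcs1 (0.40) is a subunit of the signal peptidase, Nedd8 (0.32) a ubiquitin-like modifier and Esd (0.34) an esterase; Tmem60 (0.52) and Ctxn2 (0.75), a cortexin gene, complete the 15 leading higher genes. Their adjusted p-values ranged from 0.00577 to 0.0207, and without vehicle replicate 2 only Lcmt2 and Id2 of the 15 passed, the others lying between 0.0555 and 0.0999. Crym, which encodes a thyroid hormone-binding crystallin and marks deep cortical layers, rose by 0.71 ± 0.16 (adjusted p = 0.0212), at 2623, 2398, 2296, 2801 and 2518 counts with fluoxetine and 1730, 994, 1607, 1591 and 1961 with vehicle, and had an adjusted p of 0.0903 without vehicle replicate 2. It was the 1 member of 19 cortical layer markers past the threshold.

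The promoters of 3 of the higher genes, chosen after the matches were seen, are shown with motifs known from genes of the groups above. Motifs were searched on both strands in RefSeq promoters (GRCm38.p6, 250 bases before to 50 after the start): the core of the motif of the respiratory factor NRF1 (the run in capitals in the Ndufaf5 promoter), CTCGCGAG, the core of the motif of BANP, TGACGTCA of CREB and the E-box CACGTG of the clock activators. Matches are in capitals, and none overlaps another in these promoters.
Ndufa11 promoter, chr17:56717512-56717811, plus strand: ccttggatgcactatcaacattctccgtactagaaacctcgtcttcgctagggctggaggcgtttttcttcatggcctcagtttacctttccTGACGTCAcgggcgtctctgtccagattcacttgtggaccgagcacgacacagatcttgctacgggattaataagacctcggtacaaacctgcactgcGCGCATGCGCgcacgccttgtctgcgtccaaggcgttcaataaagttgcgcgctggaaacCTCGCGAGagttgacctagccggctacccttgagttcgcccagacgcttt
Ndufaf5 promoter, chr2:140170396-140170695, plus strand: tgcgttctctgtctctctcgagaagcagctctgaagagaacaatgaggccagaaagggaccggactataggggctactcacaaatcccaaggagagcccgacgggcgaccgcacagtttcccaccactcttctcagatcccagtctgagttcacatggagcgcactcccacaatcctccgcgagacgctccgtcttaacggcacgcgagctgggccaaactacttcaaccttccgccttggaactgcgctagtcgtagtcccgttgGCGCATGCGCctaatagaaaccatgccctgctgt
Rps6 promoter, chr4:86857318-86857617, minus strand: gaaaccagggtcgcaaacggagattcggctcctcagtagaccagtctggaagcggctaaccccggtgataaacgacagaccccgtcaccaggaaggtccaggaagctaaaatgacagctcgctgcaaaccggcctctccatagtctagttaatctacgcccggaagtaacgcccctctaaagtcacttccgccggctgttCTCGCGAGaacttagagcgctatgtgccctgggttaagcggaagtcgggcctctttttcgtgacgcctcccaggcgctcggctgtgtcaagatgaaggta
The Ndufa11 promoter held the first 3 motifs, with TGACGTCA starting 158 bases and the NRF1 core 60 bases before the annotated start and CTCGCGAG at base 1 after it. Ndufaf5 held the NRF1 core from base 17 after the start, and Rps6 held CTCGCGAG from 50 bases before it. A promoter was matched by symbol for 64 of the 74 higher and 56 of the 78 lower genes. Without vehicle replicate 2, only 6 of the 74 and 12 of the 78 still passed, and none of the 3 genes shown was among them. CTCGCGAG was found for 5 of the 64 higher genes (7.81%), for 0 of the 56 lower genes and for 1.88% of all genes tested with a promoter. The NRF1 core was found for 3 higher genes (4.69%) and 1 lower gene (1.79%), against 1.98%, and TGACGTCA for 2 higher (3.12%) and 2 lower genes (3.57%), against 3.31%. The E-box was found for 7 higher (10.9%) and 7 lower genes (12.5%), against 11%. Of all promoters in the table, whether tested or not, 0.919% held CTCGCGAG, 0.971% the NRF1 core, 1.79% TGACGTCA and 7.15% the E-box. A match describes the letters of the window and shows no binding.

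The medians of several other lists of housekeeping complexes lay above 0. Of 54 cytosolic ribosomal protein genes, Rps6, a subunit phosphorylated downstream of growth signalling, was the 1 past the threshold (0.29 ± 0.072, adjusted p = 0.0379), and the median was 0.22. Rps6 was at 4059, 3911, 3966, 4075 and 4299 counts with fluoxetine and at 3515, 2415, 3646, 3589 and 3659 with vehicle, where replicate 2 was far below the rest. Without it the change of Rps6 was 0.17 (adjusted p = 0.161) and the median of the list 0.13. No member of the list passed when any 1 fluoxetine library was left out, and 3 passed without vehicle replicate 5. For 3 lists added after their members had been seen among the called genes, 3 of 13 RNA polymerase II subunits rose (Polr2g 0.27, Polr2i 0.44 and Polr2k 0.57), as did 2 of 14 proteasome core subunits (Psma1 0.30 and Psmb1 0.26) and 3 of 78 mitochondrial ribosomal proteins (Mrpl20 0.34, Mrps16 0.30 and Mrps36 0.33); none of their members fell. Those 8 genes had adjusted p-values of 0.0344 to 0.0463 and none passed without vehicle replicate 2. The 3 lists also had no call without fluoxetine replicate 1, 2 or 4 or vehicle replicate 3, and 4, 5 and 9 calls without vehicle replicate 5. With the trends over GC content and transcript length removed, 2, 0 and 0 of their members passed. Over all genes tested, 0.414% rose with all libraries in the fit. The 13 mitochondrially encoded genes had no member past the threshold, with a median of -0.09, and of 0.07 without vehicle replicate 2.

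The direction of change followed transcript length. The median longest transcript was 1385.5 bases for the higher genes, 6052.5 for the lower genes and 3177 for all genes tested. Over 10 bins of genes ranked by that length, the median log2 fold change was 0.11 in the bin of the shortest and -0.09 in that of the longest transcripts, and each bin but 1 lay below the bin before it. Without vehicle replicate 2 the end bins were at 0.08 and -0.07. In the shortest bin 34 genes were higher and 1 lower, and in the longest 34 were lower and none higher. Across genes, which are not independent replicates, the log2 fold change had a Spearman correlation of -0.267 with length and 0.065 with GC content (-0.198 and -0.154 without vehicle replicate 2). With the trends of each library over length and GC content removed, 92 genes (0.515%) passed, 38 higher (0.213%) and 54 lower (0.302%), 55 of them among the 152. With vehicle replicate 2 left out as well, 10 genes passed (0.056%). On the recovered reads, edgeR called 174 genes (0.973%), 147 of them among the 152, and DESeq2 451 (2.52%), 144 of them among the 152. Malat1, a nuclear noncoding RNA, was lower with fluoxetine, at 23306, 26437, 30920, 25693 and 25916 counts, against 42829, 43452, 33731, 38310 and 32818 with vehicle (-0.53 ± 0.12, adjusted p = 0.0284; adjusted p = 0.0829 without vehicle replicate 2). The part of RNA integrity or of nuclear RNA in the trend was not tested.

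**Figure D3:**
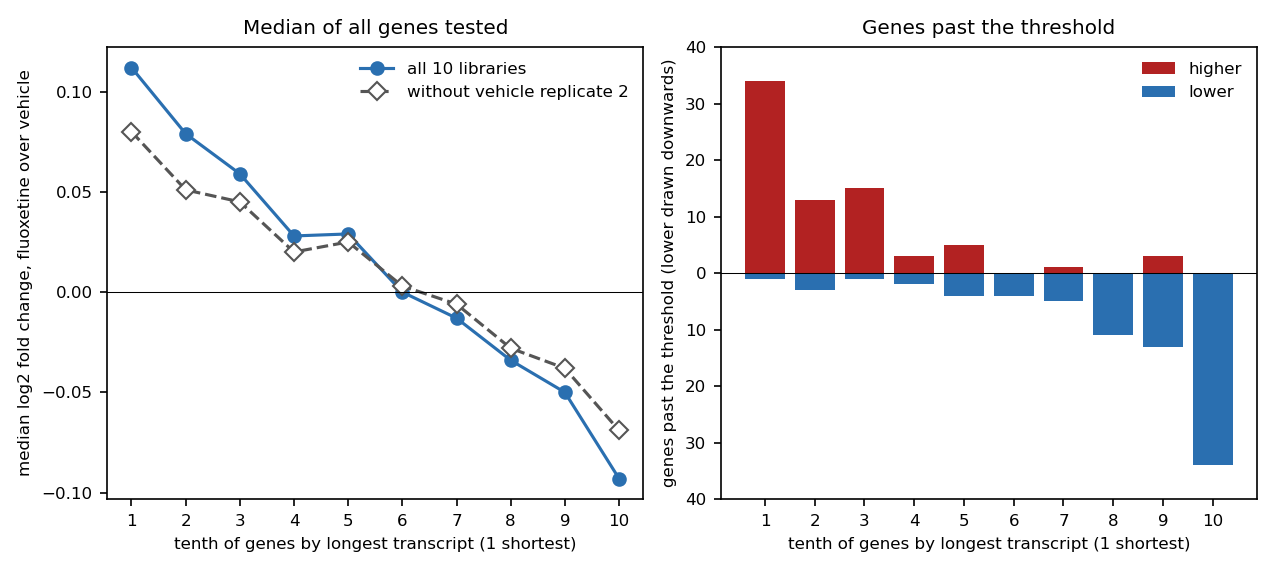
Left, median log2 fold change of fluoxetine over vehicle (y axis) in 10 bins of genes by longest transcript (x axis, 1 shortest), with all 10 libraries (circles) and without vehicle replicate 2 (diamonds); right, number of genes past the threshold in each bin, higher drawn upwards and lower downwards. The median is 0.11 in the shortest bin and -0.09 in the longest, with 34 higher genes at one end and 34 lower genes at the other.

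Genes induced by neuronal activity were lower on average without passing the test. None of 37 such genes passed, and 29 had a log2 fold change below 0, against 49.7% of all genes tested. The median was -0.25, the lowest of the lists apart from olfactory bulb markers, against 0.001 for all genes tested. With 1 library left out the median ranged from -0.336 to -0.169, and 2 members fell without vehicle replicate 1 or 5. With edgeR 1 member fell. Egr1, an immediate early transcription factor gene, was at 4646, 5289, 5031, 5090 and 5120 counts with fluoxetine and at 5767, 10602, 9815, 7300 and 6671 with vehicle. The groups were separate, but the vehicle libraries were widely spread, and the change of -0.64 ± 0.18 had an adjusted p of 0.0566 (0.167 without vehicle replicate 2). Nr4a3, an inducible nuclear receptor gene, was at 599 to 901 counts with fluoxetine and 836 to 1721 with vehicle (-0.68 ± 0.20, adjusted p = 0.0721). The list summed to 45827, 44632, 48334, 53604 and 51528 counts with fluoxetine and to 48503, 68892, 75179, 59628 and 53818 with vehicle, so that vehicle replicates 2 and 3 were the high ones. In the other strata 14 of the 37 fell in WT females, where 1.59% of all genes fell, including Egr1 (-1.21) and Nr4a3 (-1.14), and 8 fell in HT males, where 3.16% of all genes fell, including Egr1 (-0.95) and Nr4a3 (-1.23). The effects of WT males on both genes did not pass the test of a difference from either stratum (limma adjusted p of 0.353 and 0.746 for Egr1, 0.570 and 0.586 for Nr4a3, against WT females and HT males).

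Serotonin receptor genes and other genes of the serotonin system showed no member past the threshold among 18 tested. Htr1a, the inhibitory receptor of cortical and raphe neurons, was at 775, 873, 756, 780 and 714 counts with fluoxetine and at 526, 679, 629, 640 and 581 with vehicle. The groups did not overlap, and the change was 0.35 ± 0.13 (adjusted p = 0.135). Htr2c was at 1943, 988, 1105, 2265 and 1559 counts with fluoxetine and at 866, 975, 1521, 1057 and 583 with vehicle (0.65 ± 0.27, adjusted p = 0.196), and its high fluoxetine libraries were replicates 1, 4 and 5, the same as those with the high striatal markers; without the 6 libraries its change was 0.47 (adjusted p = 0.711). Htr2a, the main excitatory serotonin receptor of cortical pyramidal neurons, was at 0.26 (adjusted p = 0.355), Htr1b at 0.21 (adjusted p = 0.461), the degrading enzyme gene Maoa at 0.16 (adjusted p = 0.322) and Htr5a at 0.02 (adjusted p = 0.962). The 18 genes summed to 8047 to 9336 counts with fluoxetine and to 6929 to 7695 with vehicle. Tph2, the enzyme of serotonin synthesis in raphe neurons, averaged 29 counts with fluoxetine and 37 with vehicle.

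Pathways often examined after antidepressants had few or no members past the threshold. None of 25 genes of sterol synthesis passed (median -0.09): Hmgcs1, an early enzyme of the pathway, was at -0.22 (adjusted p = 0.0941). In the other strata 8 of the 25 fell in WT females, where 1.59% of all genes fell, and 13 in HT males, where 3.16% of all genes fell. The effect on Hmgcs1 did not pass the test of a difference from WT females (adjusted p = 0.895) or HT males (adjusted p = 0.275). None of 22 glucocorticoid-responsive genes passed (median 0.04), with the metallothionein gene Mt1 at 0.31 (adjusted p = 0.118) and Sult1a1 at 0.52 (adjusted p = 0.123); Mt1 was at 3341 to 3573 counts with fluoxetine and 2567 to 2976 with vehicle. None of 12 neurotrophin signalling genes passed, with Bdnf at -0.10 (adjusted p = 0.80) and its receptor gene Ntrk2 at -0.05 (adjusted p = 0.754). Of 14 genes of metal handling, Slc39a8, a zinc and manganese importer of vascular and other cells, fell by 0.45 ± 0.11 (adjusted p = 0.0377). Of 20 interferon-stimulated genes, Irf9, a subunit of the factor that mediates type I interferon responses, fell by 0.46 ± 0.12 (adjusted p = 0.0379), at 249 to 294 counts with fluoxetine and 359 to 424 with vehicle. Of 28 Wnt pathway genes, Lef1, a transcription factor of the pathway, fell by 0.62 ± 0.16 (adjusted p = 0.0495), at 106 to 152 counts with fluoxetine and 175 to 256 with vehicle. None of these 3 single calls remained without vehicle replicate 2, at adjusted p-values of 0.0755, 0.0774 and 0.106.

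Apart from Crym among the cortical layer markers, no gene in the lists of cell types passed in WT males. None of 18 brain endothelial genes passed; the vascular growth factor receptor gene Flt1 was nearest, at 1621, 1669, 1573, 1481 and 1325 counts with fluoxetine and 1773, 2116, 1844, 2038 and 1916 with vehicle (-0.34 ± 0.091, adjusted p just above the threshold of 0.05). The endothelial list summed to 25997 to 27968 counts with fluoxetine and 27141 to 30371 with vehicle. Myelin and oligodendrocyte genes summed to 93684 to 213534 counts with fluoxetine and 82407 to 209348 with vehicle, a spread of over 2-fold within each group, with none of 19 past the threshold and a median of 0.18 (-0.08 without the 6 libraries). None of 18 astrocyte genes (median -0.02), 19 microglial genes (0.03), 10 oligodendrocyte precursor genes (0.05) or 20 interneuron markers (0.04) passed. The same held for 11 pericyte, 20 meningeal, 11 choroid plexus and 6 blood genes, with medians between -0.05 and 0.11. No member passed in the lists of fatty acid synthesis, lysosome and autophagy, endoplasmic reticulum chaperones, integrated stress response, heat shock, hypoxia and glycolysis, thyroid hormone response, glutamate receptors, GABA-A receptors, perineuronal net, immature neurons, Notch pathway, IGF axis, or cell cycle and DNA damage, whose medians lay between -0.10 and 0.05.

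**Figure D4:**
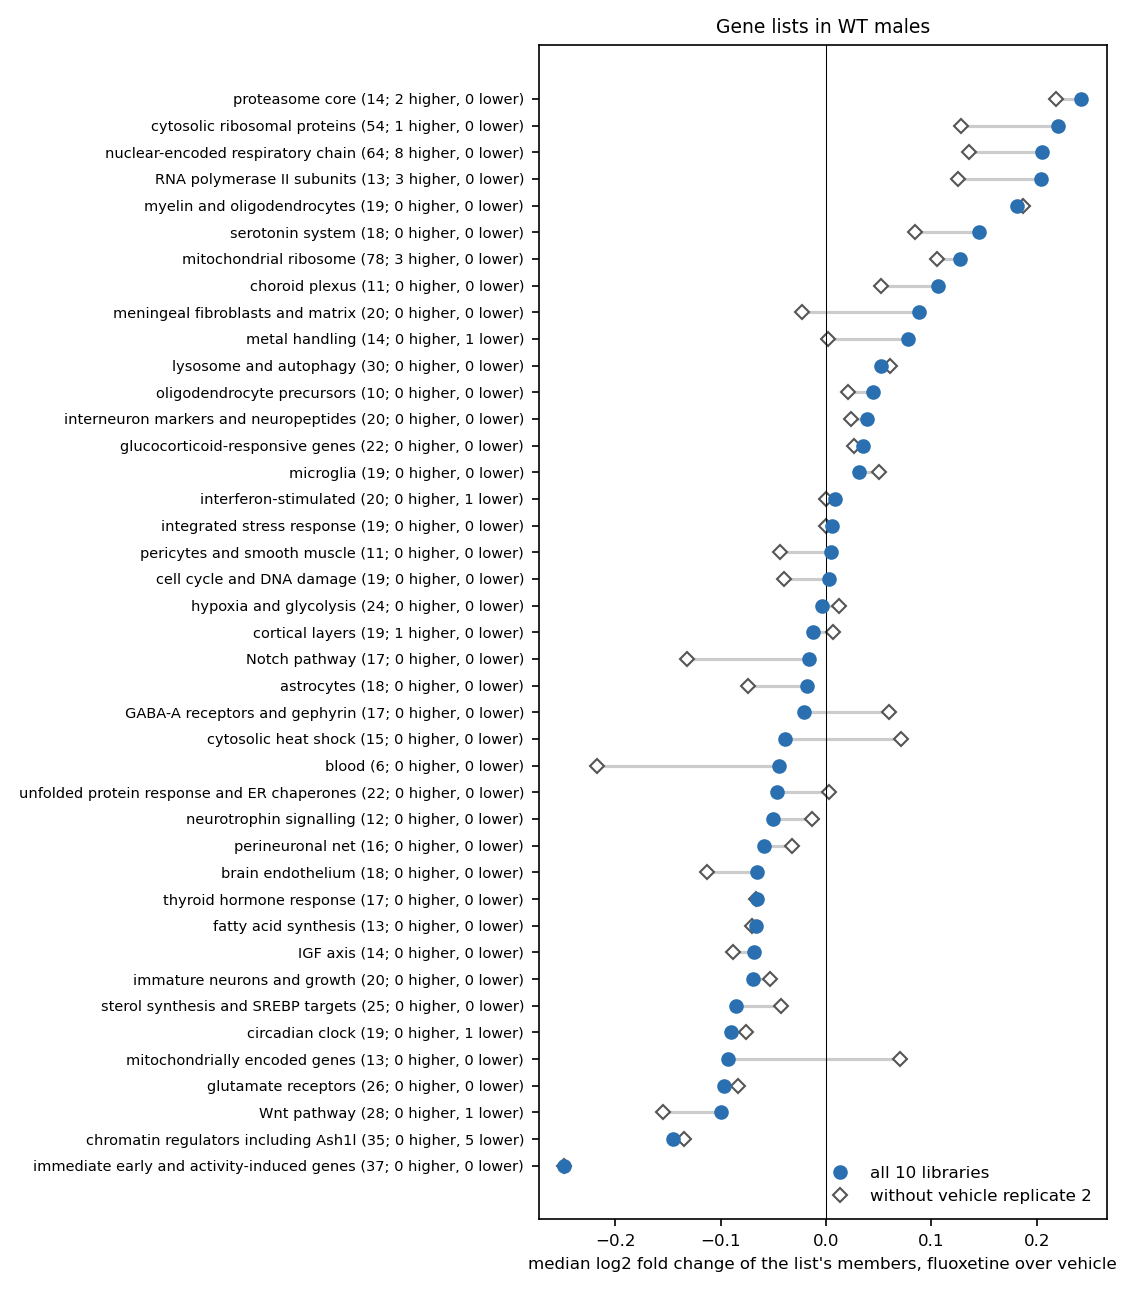
Median log2 fold change of fluoxetine over vehicle (x axis) for each gene list in WT males, with all 10 libraries (circles) and without vehicle replicate 2 (open diamonds); brackets give the members tested and the number past the threshold in each direction, and striatal and olfactory bulb markers are left out for scale. Proteasome, ribosomal and respiratory chain genes are at the top, between 0.21 and 0.24, and chromatin regulators and activity-induced genes at the bottom, at -0.15 and -0.25.

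The 3 fluoxetine comparisons without a shared library were set side by side. They share 1 variance estimate per gene from the fit to all 59 libraries, so their calls are not fully independent. WT vehicle female replicate 3 lay furthest from its group of all libraries, at a median absolute log2 distance of 0.316. That distance was 0.301 for WT vehicle male replicate 2. In WT females 509 genes passed (2.85%; 1.25% higher and 1.59% lower), of which 27 were among the 152 of the WT males (17.8% of those and 5.3% of the female calls), 26 of them in the same direction. In HT males 1026 genes passed (5.74%; 2.58% higher and 3.16% lower), of which 32 were among the 152 (21.1% and 3.12%), all in the same direction. The overlap lay mainly on the lower side: of the 78 genes lower in WT males, 24 were also lower in WT females and 21 in HT males, and of the 74 higher genes, 2 were also higher in WT females and 11 in HT males. The sign was shared by 36 of the 74 higher genes in WT females and 66 in HT males, and by 66 and 69 of the 78 lower genes. Of all 17875 genes tested, 10134 shared their sign with WT females and 11362 with HT males. Across all genes, the WT male effects had a Spearman correlation of 0.19 with the WT female effects and of 0.32 with the HT male effects. Transcript length had a Spearman correlation of -0.267 with the effects in WT males, 0.128 in WT females and -0.243 in HT males.

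Lower in all 3 were 13 genes, and Lcmt2 was higher in all 3. Lcmt2 changed by 0.57 in WT males, 0.58 in WT females and 0.41 in HT males. Banp changed by -0.39, -0.44 and -0.40, Per2 by -0.46, -0.35 and -0.54, Myh9 by -0.46, -0.47 and -0.35, and Zfp366 by -0.64, -0.85 and -0.75 in the same order of strata. Tnfrsf25, a death receptor of lymphocytes, was at 84.5, 111, 87.1, 91.3 and 70.6 counts in fluoxetine-treated and at 169, 145, 177, 183 and 245 counts in vehicle-treated WT males (-1.03 ± 0.23, adjusted p = 0.0212). The groups were separate, and the change was -1.72 in WT females and -0.96 in HT males. The others were the transcriptional corepressor gene Cbfa2t3 (-0.49, -0.84 and -0.68), the intermediate filament gene Nes, known from progenitors and vessels (-0.58, -0.80 and -0.60), the interferon-induced Slfn5 (-0.48, -0.57 and -0.51), the zinc finger gene Zbtb2 (-0.32, -0.39 and -0.27), the cochaperone gene Dnajb5 (-0.32, -0.36 and -0.39), Kdm2a (-0.23, -0.20 and -0.19), Slc39a8 (-0.45, -0.62 and -0.45) and the predicted gene Gm9754 (-1.29, -1.38 and -1.14). Kmt2d, in contrast, was at -0.18 in WT females (adjusted p = 0.368) and 0.01 in HT males (adjusted p = 0.965), and Kmt2a fell in HT males (-0.29, adjusted p = 0.0440) and was at -0.20 in WT females (adjusted p = 0.232); none of these differences between strata passed the tests that follow.

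**Figure D5:**
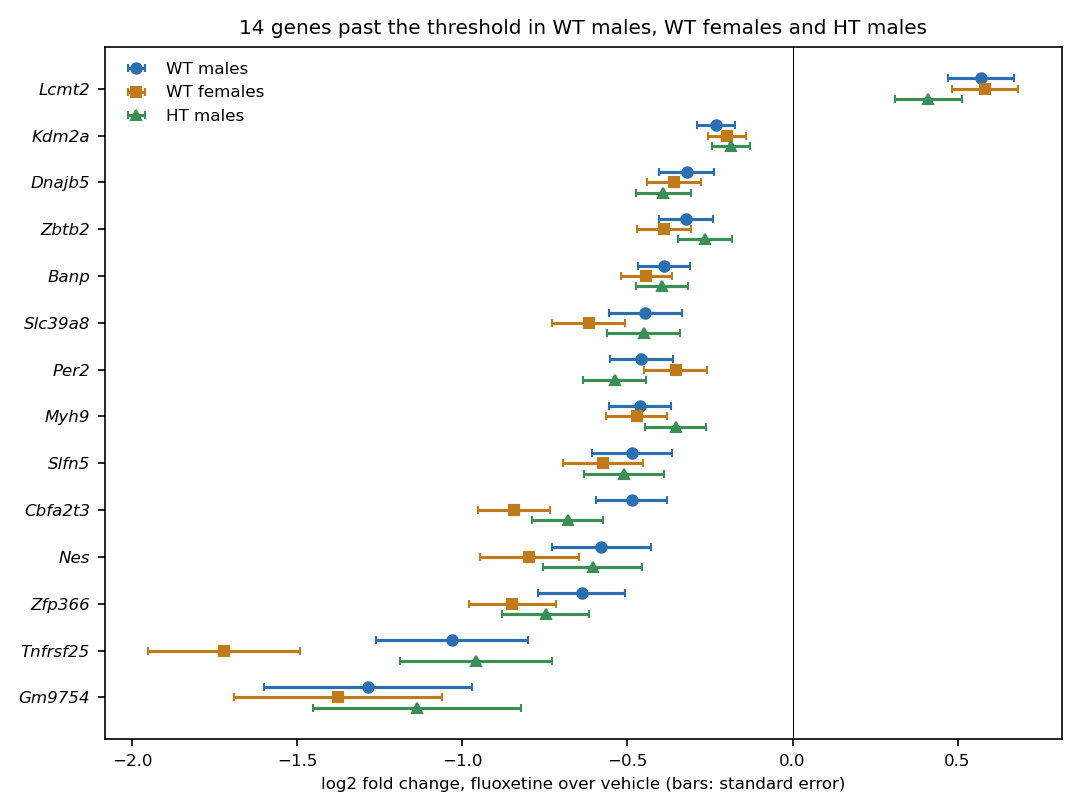
Log2 fold change of fluoxetine over vehicle (x axis) of the 14 genes past the threshold in all 3 comparisons, for WT males (circles), WT females (squares) and HT males (triangles); bars are standard errors. All 14 share their direction, 13 lower and Lcmt2 higher, with changes from 0.58 down to -1.72.

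Tests of the difference between effects called few genes. Between WT males and WT females 15 genes passed (0.0839%), 8 with a more positive (0.0448%) and 7 with a more negative (0.0392%) effect in males. Across all genes tested, the differences had a Spearman correlation of -0.311 with transcript length, and fewer genes passed with the GC content and length trends removed. Spcs1, which rose in WT males (0.40), was at -0.17 in WT females, a difference of 0.57 ± 0.11 (adjusted p = 0.0318). Ndufs4 (0.35 in WT males, -0.16 in WT females) differed by 0.50 ± 0.10 (adjusted p = 0.0343), and Ctxn2 (0.75 and -0.33) by 1.08 ± 0.24 (adjusted p = 0.0422). The Mediator subunit gene Med29 (0.21 and -0.36) differed by 0.57, Pxdc1 (0.13 and -0.58) by 0.72, the neuronal guidance gene Nav2 (-0.38 and 0.32) by -0.70, and Pde4dip (-0.25 and 0.18), a centrosomal anchor of phosphodiesterase, by -0.43. Only the predicted gene Gm48267 passed without WT vehicle male replicate 2, and 1 gene passed without WT fluoxetine male replicate 1 or 2, WT fluoxetine female replicate 2, or WT vehicle female replicate 3 or 4. Leaving out any other library of the 4 groups, apart from WT fluoxetine female replicates 3 and 5, moved the count by over 1.5 times, to between 5 and 8 or between 23 and 95.

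Between WT and HT males 1 gene passed (0.00559%). Cnih1, which encodes a cargo receptor of the endoplasmic reticulum, was at 1759, 1777, 1559, 1513 and 1549 counts in fluoxetine-treated WT males and at 1345, 1593, 1366, 1515 and 1560 in vehicle-treated WT males. In HT males it was at 1208 to 1397 counts with fluoxetine and 1474 to 1704 with vehicle. The effect was 0.14 in WT and -0.28 in HT males, a difference of 0.43 ± 0.080 (adjusted p = 0.0402). The next by p-value, Cep164 (-0.64, adjusted p = 0.115) and Gas8 (-0.46, adjusted p = 0.141), did not pass. No gene passed without WT fluoxetine male replicate 1 or 2, WT vehicle male replicate 1, 3 or 4, HT fluoxetine male replicate 3, 4 or 5, or HT vehicle male replicate 2, 3 or 4. Without WT fluoxetine male replicate 5 or WT vehicle male replicate 2, 4 genes passed, and 2 did without HT fluoxetine male replicate 2 or HT vehicle male replicate 5.

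Fluoxetine was also set against lithium in WT males, with the same fluoxetine libraries and without the vehicle libraries. The striatal marker Drd2 was at 381 and 148 counts in lithium replicates 2 and 3, against 35.4 or fewer in the other lithium libraries. Of the genes tested, 230 passed (1.29%), 75 higher (0.42%) and 155 lower (0.867%) with fluoxetine. Banp, at 593, 643, 583, 613 and 582 counts with fluoxetine, was at 980, 892, 959, 886 and 907 with lithium, a difference of -0.62 ± 0.078 (adjusted p = 2.69e-06). Per2 was at 1582 to 1929 counts with lithium (-0.69 ± 0.095, adjusted p = 1.21e-05), Sik2 at 1080 to 1310 (-0.64 ± 0.086, adjusted p = 7.17e-06) and Myh9 at 2819 to 3613 (-0.63 ± 0.093, adjusted p = 3.89e-05). The fluoxetine libraries lay below all lithium libraries for these 4 genes. Their lithium means, at 925 (Banp), 1728 (Per2), 1192 (Sik2) and 3359 (Myh9), also lay above every vehicle library. The highest vehicle libraries were at 908, 1590, 1062 and 3148 counts in the same order, so these differences do not measure fluoxetine alone. Id2 was higher with fluoxetine than with lithium, at 2214 to 2790 counts with lithium (0.50 ± 0.076, adjusted p = 4.57e-05). Lrfn2, a synaptic adhesion gene, was lower with fluoxetine, at 459 to 552 counts against 744 to 873 with lithium (-0.68 ± 0.10, adjusted p = 4.57e-05), while it was at 529 to 610 with vehicle. Kmt2d (-0.36, adjusted p = 0.0488) and Kmt2a (-0.40, adjusted p = 0.0125) were lower than with lithium as well. Lcmt2 (0.12, adjusted p = 0.673) and Zfp366 (-0.15, adjusted p = 0.688) did not pass against lithium; against vehicle, lithium gave 0.45 (adjusted p = 0.0308) and -0.49 (adjusted p = 0.0640) for these genes, a comparison that shares the vehicle libraries with fluoxetine. The count of 230 was 106, 122, 96 and 124 without fluoxetine replicates 1 to 4 and 123, 118, 91 and 92 without lithium replicates 1 to 4.

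The reads of some named genes may not be their own. Of the 30 leading genes, 8 have exons that overlap those of another listed gene on the opposite strand, among them Lcmt2 with Adal, Spcs1 with Glt8d1, Sik2 with Ppp2r1b and Ncoa3 with Sulf2, and Irf9 shares exon positions with Rnf31 on the same strand. The library kit keeps strand, and the strand setting of the counting is not given in the sources used here.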

How the data were processed

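Prefrontal cortex RNA of 59 mice was sequenced from stranded, polyadenylated-RNA libraries, per the labels' protocols. The table deposited by the authors gives a normalised signal for 18088 genes, each value being reads over a library size factor. The submitters' processing notes list Salmon 0.11.2, R 3.6.0, DESeq2 1.19.11 and GRCm38 without roles. How genes were annotated, chosen for the table and counted by strand is not given in the sources used here. Dividing by each library's smallest step gave whole numbers (tolerance 0.01) for 100.0% of values, 24.47 to 36.32 M per library. These are called recovered reads here. They may be rounded estimates, since the roles of the listed tools are not given. Reads without molecular identifiers are not independent molecules, which limits any counting precision.

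Genes with a normalised count of at least 10 in at least 5 libraries were tested (17875; 213 left out). The test was limma 3.58.1 (R 4.3.3) with trended, robust variances on log2(normalised count + 1), fitted to all 59 libraries with 1 mean per group, with Benjamini-Hochberg adjustment over all genes and a threshold of 0.05. The plan had edgeR for raw counts and limma for normalised values, so limma gave every p-value printed unless another tool is named. Fold changes are on the log2(value + 1) scale, which understates low genes. The series' replicate numbers do not pair libraries here. Positions are from GENCODE M21 on GRCm38, matched by identifier for 18077 genes.

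The groups, gene lists and tests were chosen with earlier results of these data known, so no list is independent support. Named genes are up to 15 higher and 15 lower by smallest p, leaving out predicted genes; up to 4 called members per list, or the 2 with the smallest p; up to 6 per difference of effects; Ash1l, sex-linked checks and serotonin genes. Genes called in all 3 strata, Tmsb4x, Malat1, and list members beyond this rule were chosen after their values were seen. edgeR 4.0.16 and DESeq2 1.42.0 on the recovered reads, other filters, scaling, replicate block, trends over GC content and length (splines with 5 degrees of freedom) and each library left out were alternatives. Of the genes this rule names, 1 list member is not reported here. The scripts were tested on simulated data.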

Additional observations from a re-analysis of the deposited data

Results flagged for a closer look

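In groups of 5, values were checked for 1 library far from the rest, a gap that chance alone gives in about 1 group in 20. Vehicle replicate 2 was that library for 7 of 9 such gaps among the genes and for the mitochondrial share, 9.69% of its normalised counts against 5.57% to 6.25% in the other vehicle libraries. It was low for Spcs1 (896.6 normalised counts, others 1145 to 1236), Tmem60 (190.5, others 264.8 to 290.5), Rps6 (2415, others 3515 to 3659), Ndufa11 (737.1, others 1106 to 1219) and Sdhd (1332, others 1804 to 1866), and high for Id2 (3215, others 2514 to 2699) and Kdm2a (3258, others 2745 to 2891). Vehicle replicate 4 was low for Sik2 (874.9, others 1026 to 1062), and fluoxetine replicate 5 for Ncoa3 (1136, others 1271 to 1304).

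The test of a difference in fluoxetine effect between WT males and WT females passed for Med29 (0.57), Spcs1 (0.57), Pxdc1 (0.72), Ndufs4 (0.50), Ctxn2 (1.08), Nav2 (-0.70) and Pde4dip (-0.43). The values are differences of log2 fold changes, males minus females, with limma adjusted p-values of 0.0318 to 0.0422. None of these genes passed without WT vehicle male replicate 2 or in a fit to those groups alone. Most did not pass with the GC content and length trends removed. Across all genes tested, the differences had a Spearman correlation of -0.311 with transcript length. The test of a difference between WT and HT males passed for Cnih1, at 0.43 (limma adjusted p = 0.0402), but not in a fit to those groups alone.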

How the results depend on the processing

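Of the 75 genes followed through the alternatives, many of them chosen as called, 1 changed direction, Ash1l, whose log2 fold change of -0.085 never passed; it was 0.039 with GC content and length trends removed, 0.039 with the replicate block as well, and 0.059 with the trends and vehicle replicate 2 removed. The count of 152 genes was 148 to 174 with a pseudocount of 10, no filter and edgeR, and 139 with each library centred on its median. It was 272 with a minimum count of 50, 451 with DESeq2, 92 with GC and length trends removed, 10 when vehicle replicate 2 was left out too (chosen after seeing the data), and 26 to 378 with 1 library left out; 5 genes passed without the 6 libraries high in striatal or bulb markers (also chosen after seeing the data). With the 10 libraries alone it was 0. Libraries with the same replicate number in both groups had residual correlations of -0.138 to 0.129, so the numbers do not pair them; with the number as a replicate block 161 genes passed, 140 of them among the 152, and 86 with the block and the trends removed. Among the named genes 40 passed, against 11 to 39 with 1 library left out, 25 with block and trend removal, 4 without vehicle replicate 2 and the trends, 1 without the 6 libraries, and 0 in the 10 libraries alone.

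The 15 differences between WT males and females were 47 with a minimum of 50, 111 with DESeq2, 8 with median centring, 0 in those groups alone, 2 with the trends removed, 2 with the block as well, and 1 to 95 with 1 library left out. The 1 difference from HT males was 10 with DESeq2, 0 with median centring, 0 in those groups alone, 2 with the trends removed, 3 with the block as well, and 0 to 4 with 1 library left out. The 230 genes against lithium were 384 with DESeq2, 131 with the trends removed, 119 with the block as well, and 91 to 314 with 1 library left out. The cause of these shifts was not tested. Low genes such as Olfr784 are limited by depth.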
